A study of Drosophila melanogaster with 2 samples.

Results

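The deep intronic peaks of the CG7786-eGFP fusion protein in Drosophila embryos are binding regions that lie inside a gene, in no annotated exon, and far from every transcription start site (TSS). They were taken from the authors' list of peaks that passed the irreproducible discovery rate procedure (IDR, which compares peak ranks between replicates) on genome build dm6. This list equals the 4045 strongest entries called from the 2 replicates pooled, so a peak in it need not rank alike in both. A peak was kept when its summit, the position of highest signal, lay within an Ensembl gene other than a transposable element, outside all exons, and more than 6000 bp from the nearest TSS of any gene. This held for 293 of 4045 peaks, or 7.24%.

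Chromatin immunoprecipitation followed by sequencing was done on whole embryos of both sexes, collected from 0 to 24 h, from a transgenic fly line that stably expresses CG7786 with eGFP at its C terminus. Both libraries, biological replicates 2 and 3, came from that 1 line and form the only group, so no genotype, age or treatment could be compared. The labels disagree on the antibody: one field names an anti-GFP antibody and another names CG7786. All embryonic tissues and stages were mixed, so a region bound in few cells cannot be told apart from one bound weakly in many. The sources used here do not say how separate the collections were.

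CG7786 encodes a basic leucine zipper protein related to the PAR group, whose members bind DNA as dimers through a basic region next to a zipper of leucines. In flies, the large genes of developmental regulators often carry enhancers in their introns, and such enhancers can act on the host gene or on a neighbour. A peak list shows where the tagged protein was recovered with chromatin, not which gene responds. The signal value used throughout is the authors' own score for each peak. It has no unit and is not a read count.

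Of the 5 strongest deep intronic peaks, 4 are shown as the 120 bases around their summits (RefSeq genome, dm6), because they are the sites where the tagged protein gave most signal. Capitals mark the 5-base word CACTG, on either strand, which is described further on.
Mi-2 and Su(Tpl) (chr3L:19903224-19903343, plus strand): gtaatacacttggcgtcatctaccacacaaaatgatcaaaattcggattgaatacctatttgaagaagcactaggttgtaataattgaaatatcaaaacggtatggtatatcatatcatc
Gug (chr3L:8458254-8458373, plus strand): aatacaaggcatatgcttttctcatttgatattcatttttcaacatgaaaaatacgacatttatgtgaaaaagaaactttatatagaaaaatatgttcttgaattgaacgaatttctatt
Raf (chrX:2304051-2304170, plus strand): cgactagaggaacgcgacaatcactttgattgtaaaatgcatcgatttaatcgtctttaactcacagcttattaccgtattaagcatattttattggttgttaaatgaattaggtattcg
gpp (chr3R:6424086-6424205, plus strand): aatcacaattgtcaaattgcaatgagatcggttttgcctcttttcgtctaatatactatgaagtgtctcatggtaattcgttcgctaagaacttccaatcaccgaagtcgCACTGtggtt
Among these 4 windows, the word occurred 1 time, in that of gpp. Windows of 200 bp around the summits of all 293 peaks had a median GC content of 36%, against 40.5% in 125699 deep intronic tiles of the same length that overlapped no IDR peak.

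A second set is shown because an 8-base word, CACTGAGA, was found in 24 of the 293 windows of 200 bp, or 8.19%, and in 0.611% of the deep intronic tiles. The 60 bases around the word are given for 8 of the 10 strongest of these peaks, oriented so that the word reads forward, and capitals mark the word.
pnt (chr3R:23326386-23326445, plus strand): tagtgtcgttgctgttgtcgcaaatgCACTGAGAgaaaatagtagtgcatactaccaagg
CG43759 (chrX:19018167-19018226, plus strand): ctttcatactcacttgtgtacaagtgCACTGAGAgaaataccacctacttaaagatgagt
CG6959 (chr3R:11849880-11849939, minus strand): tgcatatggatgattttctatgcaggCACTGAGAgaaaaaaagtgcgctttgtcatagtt
Lim1 (chrX:8774148-8774207, plus strand): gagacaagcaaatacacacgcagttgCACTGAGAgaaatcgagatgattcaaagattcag
cv-c (chr3R:14473827-14473886, minus strand): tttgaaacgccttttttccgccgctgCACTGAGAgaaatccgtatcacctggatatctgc
Snoo (chr2L:7916412-7916471, plus strand): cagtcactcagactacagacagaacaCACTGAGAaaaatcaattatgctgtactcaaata
ed (chr2L:4045643-4045702, minus strand): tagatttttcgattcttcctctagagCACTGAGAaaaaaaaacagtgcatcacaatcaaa
Efa6 (chr3R:22597633-22597692, minus strand): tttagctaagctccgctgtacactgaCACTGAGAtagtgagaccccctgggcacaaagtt
The host genes in this set include pnt, which encodes an Ets factor of receptor tyrosine kinase signalling, Lim1, a LIM homeobox gene, Snoo, a Smad cofactor gene, and ed, which encodes the adhesion protein echinoid. The peaks ranged in signal value from 240.1 at pnt to 123 at Efa6. In 5 of the 8 the word is followed directly by GAAA and in 2 by AAAA. Of all 853 occurrences of the word in deep intronic sequence, 170 were followed by GAAA. Within 100 bp of a deep intronic summit, 14 of 25 were. The 853 include these 25, which include the sequences shown. GAAA was picked from the same sequences, so these counts give it no separate support.

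The deep intronic peaks were weaker than other peaks as a class. Their signal values ran from 79.7 to 537 with a median of 113, against a median of 130.1 over all 4045 peaks. The median was lower with each distance class, from 136 at peaks within 500 bp of a TSS to 132 at intronic peaks 500 to 2000 bp away and 123 at those 2000 to 6000 bp away. Intergenic peaks beyond 6000 bp, 94 in number, had a median of 113, like the intronic ones. Of the 293, 39, or 13.3%, were among the 1000 strongest peaks, a class that held 24.7% of the whole list, and 5 were among the strongest 200.

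Within the deep intronic peaks, signal value showed no steady trend with distance. The 101 peaks 6 to 8 kb from a TSS had a median of 113, the 93 at 8 to 12 kb 105, the 61 at 12 to 20 kb 118 and the 38 beyond 20 kb 123. Distances ran from 6052 to 49806 bp with a median of 9434 bp. The most remote peak lay in hth, the gene of a homeodomain cofactor of Hox proteins, 49806 bp from a TSS, with signal values of 47.3 in replicate 2 and 83.7 in replicate 3. The next, in the zinc finger gene mamo at 42361 bp, had 49.0 and 106.

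The strongest deep intronic peak lay at chr3L:19903121-19903427 in introns shared by Mi-2, the ATPase of the NuRD chromatin remodelling complex, and Su(Tpl), which encodes the elongation factor ELL. Its signal value was 199 in replicate 2 and 344 in replicate 3, and 537 in the pooled list, with ranks of 139 and 113 in the replicates. It lay 6081 bp from the nearest TSS, so it was also one of the peaks nearest the distance limit. The peak in Hr3 (chr2R:10219924-10220234), a nuclear receptor gene of the ecdysone cascade, had 194 and 311, with ranks 149 and 138. In Gug (chr3L:8458186-8458456), which encodes the corepressor Atrophin, the values were 190.1 and 303, with ranks 158 and 146. These peaks stood in the same part of the list in both libraries.

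Raf, the kinase between Ras and MEK, held the fourth (chrX:2303975-2304228), with signal values of 185 in replicate 2 and 274 in replicate 3 and ranks of 169 and 177. The peak in gpp (chr3R:6423982-6424245), which encodes the histone H3 lysine methyltransferase Dot1, had 163 and 279.5, and lay 14568 bp from the nearest TSS. Another histone modifier gene, JIL-1, the histone H3 kinase gene, held a peak (chr3L:11084689-11084903) with 168 and 225.

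The remaining peaks of the top 10 lay in genes of receptors and signalling. That of fz (chr3L:14303946-14304165), the Frizzled receptor gene, had 165 in replicate 2 and 222 in replicate 3 and was 22219 bp from a TSS. That of Hr4 (chrX:1963805-1964034), another nuclear receptor gene, had 134 and 242, and that of Dad (chr3R:17065015-17065307), the gene of an inhibitory Smad of the Dpp pathway, had 133 and 236. That of N (chrX:3162400-3162588), which encodes the Notch receptor, had 119 and 197. All 10 were within rank 475 of both replicates.

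Pooled signal values of the next 10 ran from 308 to 241. They lay in sick, stx, simj (at 2 positions), cv-2, eIF4EHP, cic, tara, sima and scrib. The simj gene encodes a p66 subunit of the NuRD complex that also holds Mi-2, cv-2 a secreted regulator of BMP signalling, cic an HMG-box repressor controlled by receptor kinase signalling, sima the HIF alpha factor of the hypoxia response, and scrib an epithelial polarity protein. The weakest replicate 2 rank among them was 1113, at scrib, whose signal values were 76.0 and 166.

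Replicate agreement was lower for the deep intronic peaks than for the list as a whole. A peak counted as repeated when each replicate's 4045 strongest entries held a summit within 200 bp. This held for 200 of the 293 peaks, or 68.3% (95% exact binomial interval 62.6% to 73.6%), where 77.5% of all IDR peaks were repeated. The share was 76.4% for intronic peaks 500 to 2000 bp from a TSS, 73.6% for those 2000 to 6000 bp away, and 70.2% for intergenic peaks beyond 6000 bp. No test was made, because peaks of the same libraries are not replicates.

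The shortfall was on the side of replicate 2. Of the 293 peaks, 264 were in the top list of replicate 3, a share of 90.1% against 91.2% over all peaks, and 229 in that of replicate 2, a share of 78.2% against 85.8%. Replicate 3 alone held 64 and replicate 2 alone 29. Missing from both were 18 of all 4045 IDR peaks and no deep intronic peak, so absence from both was rare in either set. The median signal value was 48.4 in replicate 2 and 67.1 in replicate 3, against 55.4 and 79.3 over all peaks. Spearman's rho of the signal values in the replicates was 0.61 across the 291 deep intronic peaks with an entry in both and 0.74 across all IDR peaks, and rho has no p here because the peaks share their libraries and are cut at a minimum pooled signal.

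**Figure D1:**
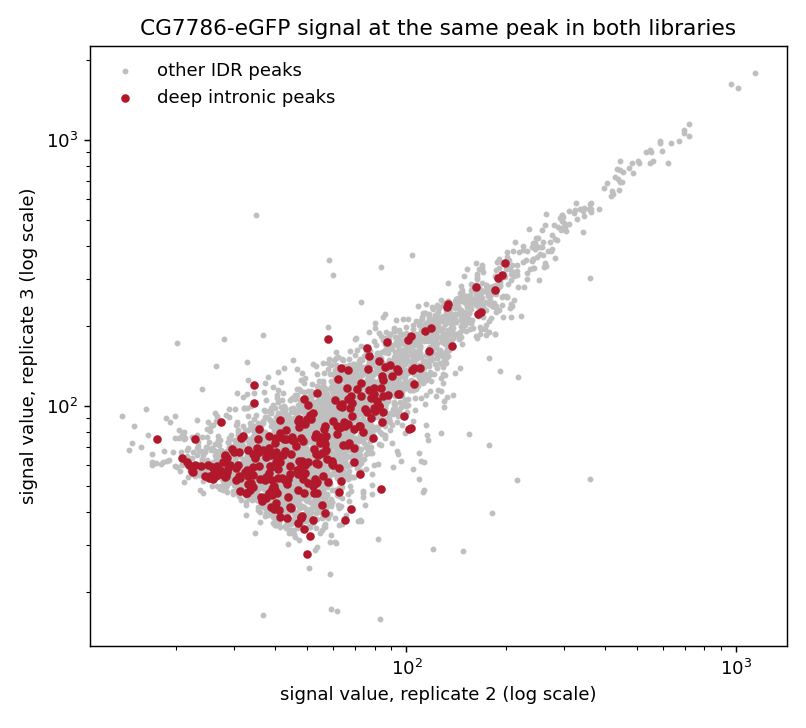
Signal value of each IDR peak in replicate 2 (x axis, log scale) and replicate 3 (y axis, log scale), with deep intronic peaks in red and all other peaks in grey. The red points reach 199 on the x axis and 344 on the y axis, while the strongest other peaks lie beyond both.

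Of the 291 deep intronic peaks with an entry in both replicates, 235 had ranks within 2-fold of each other. The same share was not taken over all IDR peaks. The most discordant went as far down as rank 16827 in replicate 2 and 7822 in replicate 3, and 2 peaks had no entry in replicate 2. One of these 2 lay in rdx, which encodes an adaptor of the Cullin-3 ubiquitin ligase, with a signal value of 78.2 in replicate 3. Where both libraries had an entry, the summits lay a median of 10 bp (replicate 2) and 8 bp (replicate 3) from the IDR summit.

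Peaks were denser in introns near a TSS than far from one, with an uneven fall between. Intronic sequence held 115.1 IDR peaks per Mb within 500 bp of a TSS, 43.6 at 1 to 2 kb, 21.8 at 4 to 6 kb and 21.7 at 6 to 8 kb. The density then was 15.2 per Mb at 8 to 12 kb, 10.3 at 12 to 20 kb, 10.5 at 20 to 30 kb and 1.53 beyond 30 kb. The classes on both sides of the 6000 bp limit thus had nearly the same density, and the largest relative drop between neighbouring classes was the one at 30 kb. Over all 25.3 Mb of deep intronic sequence the density was 11.6 per Mb, and intergenic sequence as far from a TSS held 5.19 per Mb. These densities, and those by arm below, count all bases with repetitive sequence left in. The part of repeats in them was not tested.

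**Figure D2:**
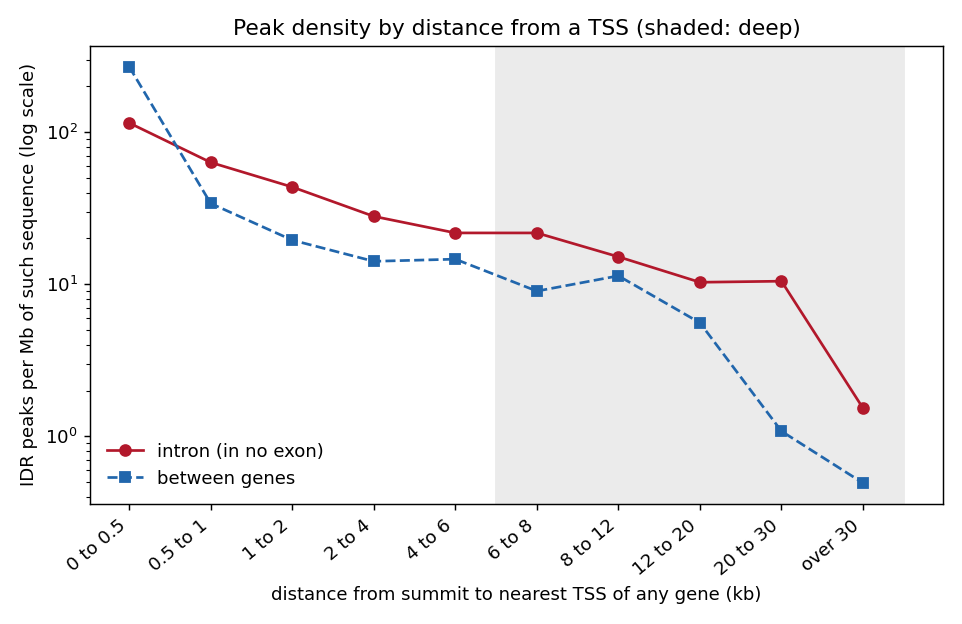
IDR peaks per Mb (y axis, log scale) by distance from the summit to the nearest TSS (x axis, kb), for intronic sequence outside exons (red circles) and intergenic sequence (blue squares), with the deep range shaded. The intronic line lies above the intergenic one in every class beyond 500 bp, from 63.3 against 34.0 per Mb at 0.5 to 1 kb to 1.53 against 0.493 beyond 30 kb.

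The peaks just outside the limit lay in CG46385 at 5891 bp, Pvf3 at 5948 bp and babos at 5969 bp, with signal values of 90.6, 127 and 80.7. Those just inside lay in CG4928 at 6052 bp (87.8), in CG46467 and Glut4EF at 6069 bp (174), and in Mi-2 and Su(Tpl) at 6081 bp (537).

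By chromosome arm, the X held 82 deep intronic peaks, or 17.2 per Mb of deep intronic sequence, and 2L held 52, or 14.4 per Mb. The arms 2R, 3R and 3L followed with 10.5, 9.37 and 8.74 per Mb, from 46, 71 and 42 peaks. Chromosome 4 held none in 0.215 Mb. The arms differ in gene structure and, for the X in males, in copy number, and the part of either in these densities was not tested.

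Deep peaks were denser in first introns than in later ones. Of the 293 peaks, 146 lay in the first intron of at least 1 transcript, or 49.8%, while 29.5% of deep intronic bases did. The density was 19.5 per Mb in first introns and 8.23 per Mb elsewhere. At 6 to 12 kb from a TSS it was 23.1 against 14.6 per Mb, and beyond 12 kb 14.6 against 4.64 per Mb, so the order was the same at both distances. The nearest TSS belonged to a host gene for 177 peaks, or 60.4%, and to another gene for 116. Of those 116, 77 were nearest to a protein-coding gene and 39 to a noncoding gene only.

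The peaks lay in 207 genes, of which 200 were protein-coding. Of the 1457 protein-coding genes with any deep intronic base, 13.7% held a peak. The share grew with the length of deep intron, from 1.06% of genes with up to 2 kb to 19.7% at 10 to 20 kb and 35.0% at 40 to 80 kb, and was 32.4% beyond 80 kb. Most protein-coding hosts, 135 of 200, held 1 peak, 45 held 2 and 20 held 3 or more. Those 20 genes took in 69 of the 293 peaks.

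The host with most peaks was kirre, which encodes an immunoglobulin adhesion protein of myoblast fusion. Its 7 peaks had pooled signal values of 80.2 to 166 and spread over 328391 bp of a gene of 394149 bp. Next was sbb, the gene of the corepressor Brakeless, with 6 peaks within 17869 bp and signal values of 101 to 235. All 6 sbb peaks were in the top lists of both replicates, and 4 of the 7 in kirre were. Per Mb of its own deep intron, kirre held 33.3 peaks and sbb 179.

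Genes with 4 peaks were simj, tara, luna, rdx, jing and the noncoding lncRNA:CR32773. The 4 simj peaks lay within 5288 bp, with signal values in replicate 2 of 103, 104, 66.1 and 52.3 and in replicate 3 of 184, 137, 71.3 and 47.3. All were in the top lists of both replicates. In tara, which encodes a SERTAD-domain cell cycle and sleep regulator, the values were 83.8, 109.7, 56.4 and 44.5 in replicate 2 and 117, 139, 39.5 and 41.8 in replicate 3, and 2 of the 4 peaks were in both top lists. The 4 peaks of luna, a Krüppel-like factor gene, spread over 50767 bp, with pooled values of 93.6 to 236. Those of rdx lay within 5347 bp and those of jing, a zinc finger gene, over 65247 bp.

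Among genes with 3 peaks, several encode transcription factors. Eip75B, an ecdysone-induced nuclear receptor gene, had signal values of 68.3, 98.3 and 83.9 in replicate 2 and 91.5, 91.9 and 48.7 in replicate 3. The bHLH gene crp had 84.6, 33.3 and 46.9 in replicate 2 and 95.4, 55.0 and 48.3 in replicate 3. The nuclear receptor gene ftz-f1, whose intron lncRNA:CR45939 shares, had 28.3, 34.3 and 20.9 in replicate 2 and 54.6, 54.9 and 64.1 in replicate 3. None of the ftz-f1 peaks was in the top list of both replicates, whereas all 3 in Eip75B were.

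Signalling genes with 3 peaks were Raf, fz, cv-2 and Snoo. The Raf peaks had 93.8, 185 and 42.9 in replicate 2 and 137, 274 and 67.7 in replicate 3, from 5' to 3', within 4142 bp. Those of fz had 34.1, 165 and 60.9 in replicate 2 and 58.98, 222 and 106 in replicate 3, over 41410 bp, so 1 strong site stood among weaker ones in both genes. Those of cv-2 had 40.3, 117 and 50.1 in replicate 2 and 66.8, 162 and 101 in replicate 3. Those of Snoo had 53.7, 86.1 and 62.3 in replicate 2 and 65.3, 141 and 82.5 in replicate 3.

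The remaining genes with 3 peaks were Zdhhc8, a palmitoyltransferase gene, eIF5B, a translation initiation factor gene, heca, CG31145, lncRNA:CR44357, and the overlapping CG6191 and CG45088, which share the same 3 peaks. Their pooled signal values ran from 79.96 in CG6191 to 185 in Zdhhc8.

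**Figure D3:**
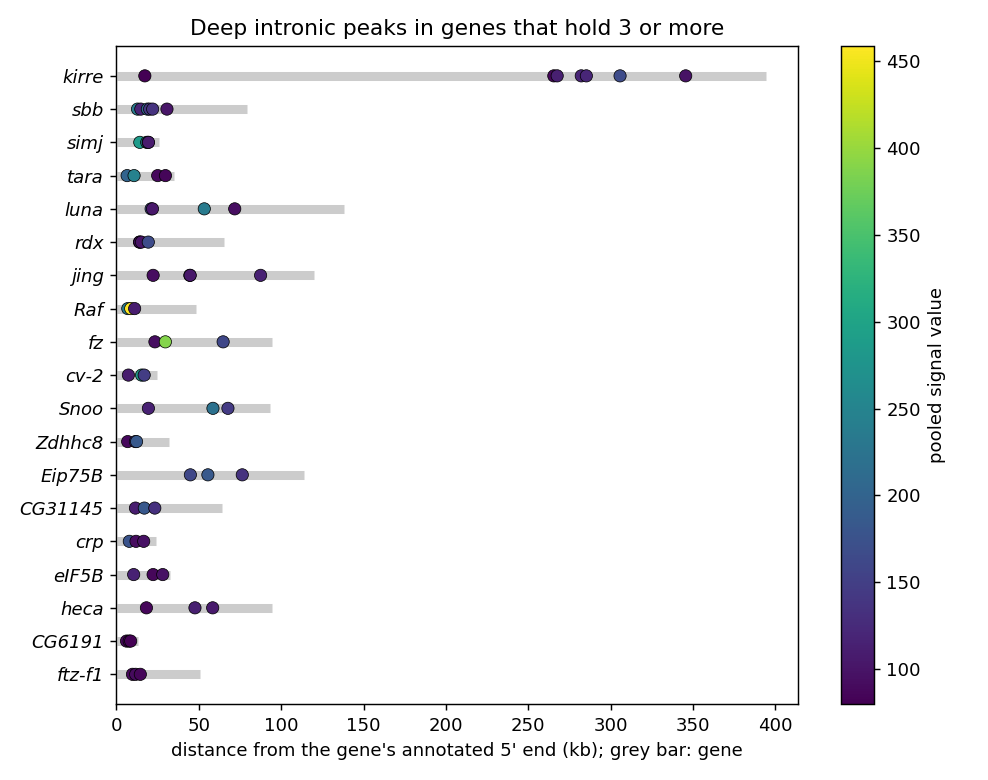
Positions of deep intronic peaks (points, coloured by pooled signal value) along the protein-coding genes that hold 3 or more, as distance in kb from each gene's annotated 5' end (x axis), with grey bars for gene length. Of the overlapping pair CG6191 and CG45088, CG6191 is drawn. Peaks lie close together in sbb, simj, rdx and Raf and far apart in kirre, jing and Snoo.

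Many hosts of a deep intronic peak also held other peaks. A TSS-proximal peak was present at 67 of the 200 protein-coding hosts, or 33.5%, against 249 of 1257 eligible genes without a deep peak, or 19.8%. An intronic peak between 500 and 6000 bp from a TSS was present in 106 hosts, or 53.0%, against 241, or 19.2%. Among genes with over 40 kb of deep intron the shares were 29.2% against 11.96% for TSS-proximal peaks and 64.6% against 10.9% for nearer intronic peaks. Hosts had a median of 2 annotated TSSs and the other genes 1, so they had more positions at which a TSS-proximal peak could count. In 69 hosts there was neither kind of peak.

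The share of host genes was taken for 6 lists of genes by role, with no test. All 6 lists were chosen with earlier results of these data known, and the part of that choice in the shares was not tested. Of 72 eligible transcription factor and chromatin genes, 25 held a peak, or 34.7% (95% exact binomial interval 23.9% to 46.9%), against 19.1% of all eligible genes in the same classes of deep intron length. The list leaves out Mi-2, Gug, gpp and JIL-1, whose peaks are described above. The 5 of its genes with the highest signal values were Hr3, Hr4, cic, pnt and luna, and the list also held Antp with 2 peaks and Ubx and hth with 1 each. The peak of pnt had signal values of 57.9 in replicate 2 and 179 in replicate 3, a wider gap than at the other 4. The 25 genes held 46 peaks with a median signal value of 136, of which 33 were repeated in both replicates. Of all deep intronic peaks, 68.3% were.

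Of 45 eligible signalling pathway genes, 15 held a peak, or 33.3% (20% to 49%), against 17.2% in the same length classes. The 5 highest of the list were Raf, fz, N, ed and dnc, the last of which encodes a cAMP phosphodiesterase. The second ed peak, at 128, is the one whose sequence is shown above, and the stronger had 94.1 in replicate 2 and 136 in replicate 3. The list also held tkv, a Dpp receptor gene, with 2 peaks, and cact, the gene of the Toll pathway inhibitor Cactus, with 1 at the lowest signal value of all deep intronic peaks, 79.7. Dad was not counted, because the list spelled it in another way and it went unmatched, and cv-2 and Snoo are not in the list.

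Cell adhesion and axon guidance genes, many of them long, were near the share of their length classes: 12 of 72 held a peak, or 16.7% (8.92% to 27.3%), against 20.2%. The 5 highest were kirre, Ten-a, NetA, caps and Fas3. Of these, the 2 NetA peaks, in a netrin gene, had signal values of 56.8 and 45.0 in replicate 2 and 68.1 and 74.9 in replicate 3. Ion channel and synapse genes held peaks in 2 of 53, or 3.77% (0.460% to 12.98%), against 17.8% in the same length classes. These were Ca-beta, a calcium channel subunit gene, at 105 and the muscarinic receptor gene mAChR-B at 82.4.

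Of 25 cytoskeleton and muscle genes, 1 held a peak, or 4.00% (0.101% to 20.4%), against 10.1%, and it was the formin gene Fhos at 113. Of 18 RNA-binding protein genes, 5 held a peak, or 27.8% (9.69% to 53.5%), against 24.8%. These were how, brat, pum, sm and heph, with 1 peak each and signal values of 189, 177, 152, 102 and 82.2. The how peak had 78.1 in replicate 2 and 107 in replicate 3, and the heph peak 25.4 and 54.6. The intervals cover counting error only and take genes as independent.

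**Figure D4:**
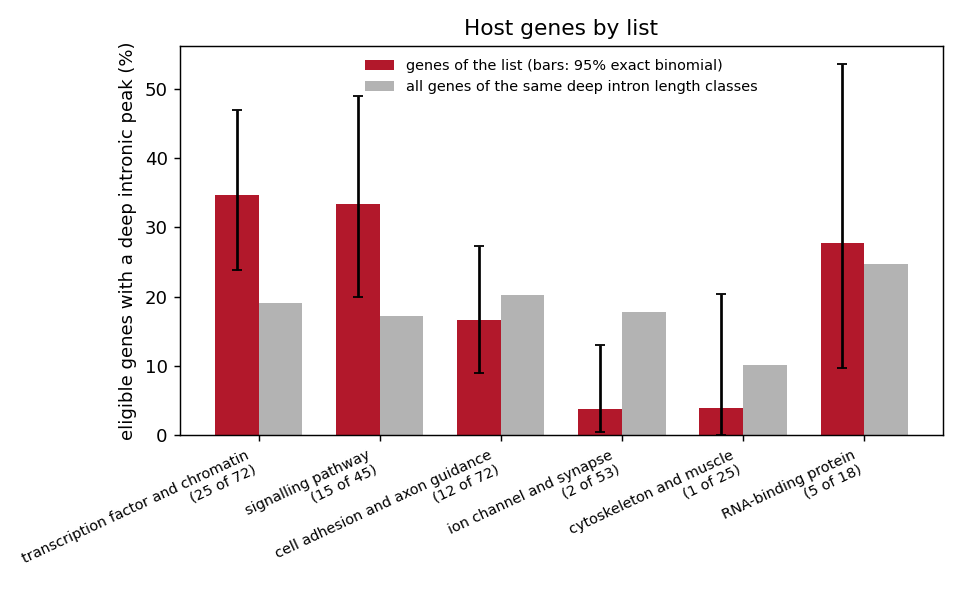
Share of eligible genes that hold a deep intronic peak (y axis, percent) for each gene list (red, with 95% exact binomial intervals) beside the share over all genes in the same deep intron length classes (grey). Transcription factor and signalling genes stand at 34.7% and 33.3%, and ion channel and synapse genes at 3.77%. The lists were chosen with earlier results of these data known.

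Of 30 sequence motifs searched on both strands in 200 bp windows, few differed much in share from the deep intronic tiles. The PAR bZIP sites TTACGTAA and TTATGTAA were in 3 of 293 windows, or 1.02%, against 1.68% of tiles, and the 3 windows lay in B4, drl and Pgant5. The C/EBP site TTGCGCAA was in none, which allows a share of up to 1.25% (upper exact 95% bound). Its share was 0.386% in tiles and 0.222% over all IDR peaks, so its absence cannot be told from either. The GATA factor word, which is GATA between an A or T and an A or G, was in 35.2% against 30.7%. The forkhead word, which is TAAACA after a G or an A, was in 13.3% against 10.8%. Over all IDR peaks the GATA word was in 35.6% and the forkhead word in 15.6%. Within the middle GC range of the deep intronic windows, the forkhead word was in 12.7% against 12.6% of tiles. The GATA word was there in 38.9% against 34.8%. Lower than in tiles were the E-box CACGTG, in 1 window or 0.341% against 2.14%, and the Tramtrack word, searched as AGGACCT and also in a second form that reads AGGATAA, in 2 windows or 0.683% against 3.79%. Over all IDR peaks the shares were 2.50% for CACGTG and 1.76% for the Tramtrack word. The Ets words searched were in no deep intronic window, against 0.988% of tiles and 0.841% over all IDR peaks. The upper bound of 1.25% lies above both, so no lower share is shown for them. The E-box CATATG, which reads the same on both strands, was in 26 windows or 8.87% against 5.70%. The DRE word TATCGATA was in 0.683% of deep intronic windows and 8.45% of those at TSS-proximal peaks. Absence of a word says only that its letters were not in the window.

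The word CACTG was in 9 of the 12 words of 8 letters with the highest ratio of share in deep intronic windows to share in tiles, among words in at least 12 windows, and was chosen after those values were seen. By difference in share, the largest excess among words of 6 letters was that of AAAAAA, in 52.6% of windows against 36.6% of tiles, beside the lower GC content of the windows. CACTG was in 161 of 293 windows, or 54.9%, against 27.1% of deep intronic tiles. Windows centred 500 bp to either side of the same summits had CACTG in 27.0%. In tiles within the middle GC range of the deep intronic windows the share was 24.4%, and it was 53.5% in the 157 windows of that range. Other classes of peak had it in like shares, with 53.8% at intronic peaks 500 to 2000 bp from a TSS, 54.8% at 2000 to 6000 bp, 52.5% at intergenic and 49.6% at TSS-proximal peaks. By signal, it was in 55.5% in the 146 stronger and 54.4% in the 147 weaker deep intronic peaks.

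The word lay to the sides of the summit more than at it. There were 66 occurrences between 100 and 50 bp on the left of the summit and 80 between 50 and 100 bp on its right, but 43 and 37 in the 50 bp next to it on either side. The tiles gave 24.3 per 50 bp for the same number of windows, and beyond 150 bp from the summit counts were between 17 and 30.

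**Figure D5:**
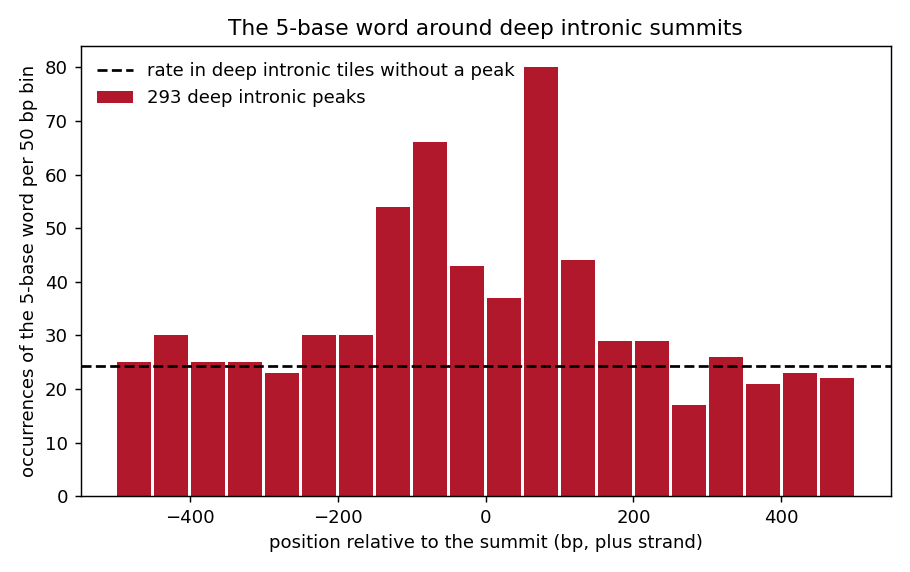
Occurrences of the 5-base word on either strand (y axis, summed over 293 deep intronic peaks) by position relative to the summit (x axis, bp, 50 bp bins), with the rate in deep intronic tiles as a dashed line. The bars on both sides of the summit, 66 and 80, are the highest and stand above the dashed line at 24.3.

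The longer word CACTGAGA, which contains CACTG and was also chosen after its values were seen, had an uneven share across classes of peak. It was in 8.19% of deep intronic windows (95% exact binomial interval 5.32% to 11.9%), 7.58% of intronic windows 2000 to 6000 bp from a TSS, 7.34% of intergenic, 4.10% of intronic 500 to 2000 bp, and 1.65% of TSS-proximal ones. Windows 500 bp to either side of the deep summits had it in 0.341%. Of the 24 peaks with the word, 18 were repeated in both replicates, and their signal values ran from 80.04 in Antp to 240.1 in pnt.

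The word was often in sequence that the genome file marks as repetitive or low in complexity. Near the summits, within 100 bp, 19 of 25 occurrences were so marked, or 76.0%, against 39.0% of all 853 occurrences in deep intronic sequence. With marked letters left out, the word was in 5 windows, or 1.71%, against 0.391% of tiles, and CACTG in 127, or 43.3%, against 22.4%. Deep intronic windows as a whole were marked over 19.4% of their bases, and all deep intronic sequence over 26.3%. The part of repeats in the signal at these sites was not tested, and read mapping to repeated sequence cannot be judged from peak lists.

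Read the other way, most copies of the word were not at a peak. Of the 853 in deep intronic sequence, 25 were within 100 bp of a deep intronic summit, or 2.93%, where 0.232% of all deep intronic bases were. An entry of the relaxed pooled list, which runs to 30000 entries and includes background by design, covered 165, or 19.3%, against 4.88% of bases.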

How the data were processed

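The 2 libraries, biological replicates 2 and 3 of 1 group, were analysed from the peak lists that the authors deposited. Per the text deposited with each library, relaxed lists of peaks and background were called for each replicate and for the pool against a control, and the IDR list was derived from them. For aligner, peak caller, IDR threshold and versions: not given in the sources used here. Neither the control alignment nor the dm3 lists were analysed here. The signal value in the authors' lists is a score without a stated unit, and each deposited list also gives a −log10 q-value, which was not used to rank peaks. Depth is unknown, since no read numbers come with the lists used here. Each relaxed list holds 30000 entries, and the IDR list equals the 4045 strongest pooled entries.

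Genes, exons and TSSs came from Ensembl release 115 and sequence from the RefSeq genome of the same assembly, dm6. Positions are 1-based. TSS-proximal means within 500 bp. Eligible genes hold at least 1 base that the rule could take. Tiles are all non-overlapping 200 bp pieces of deep intronic sequence that overlap no IDR peak. The members and lists were chosen with earlier results of these data known, and CACTG, CACTGAGA and the GAAA after it once their values were seen. Named were the 20 strongest peaks, hosts with 3 or more, up to 5 hosts per gene list and the 3 peaks on each side of the limit. Sequences on arm 2R are not shown. With 1 group, no test was made, intervals cover counting error only, and the spread between 2 libraries may be technical. Unmatched list names were 4 signalling, 2 ion channel, 1 cytoskeleton and 4 RNA-binding names. The classification was checked at random genome positions against the same rule coded in another way. The search for CACTGAGA was checked on simulated sequence with the word planted. Python 3.11.15, numpy 2.4.6, pandas 2.3.3 and scipy 1.17.1 were used.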

Additional observations from a re-analysis of the deposited data

How the results depend on the processing

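A TSS limit of 8000 bp left 192 peaks, and the strongest 2022 IDR peaks held 109. In that stronger set the median signal value was 178, the share repeated in both replicates 97.2% (99.5% over all peaks of that set), and the share of eligible genes of any type with a peak 6.32%, against 13.8% in the full list. Taking each replicate's 4045 strongest entries alone gave median signal values between 50.0 and 66.8, on the scale of 1 library, and 229 and 264 of the 293 peaks had a summit within 200 bp in those lists. The median signal value minus that of the other peaks was -5.03 in replicate 2 and -12.5 in replicate 3, against -18.8 in the pooled list. Median GC content was 33.0% in 100 bp windows, 40.25% in 400 bp windows and 37.5% in the stronger set. The ratio of the CACTG share in deep intronic windows to that in tiles was 1.66 in 100 bp windows and 1.58 in 400 bp windows, against 2.03. The ratio for CACTGAGA was 8.10 in 100 bp windows, where it rests on 7 peaks, against 13.4 from 24 peaks. Of 420 values for the 30 motifs, 45 left their counting interval: 29 in 100 or 400 bp windows, 12 in the stronger set and 4 at the 8000 bp limit. Most of the 29 were shares of windows, which change with window length by construction. The GATA word, for one, was in 35.2% of 200 bp, 21.5% of 100 bp and 54.3% of 400 bp windows. The 12 belonged to motifs in 1 or 2 of the 293 windows and in none of the 109. Beyond these values, the cause was not tested. No paired analysis was possible because there is 1 group. With 2 libraries and unknown depth, weak peaks cannot be separated from those missed in 1 library.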
